A study of Bos taurus with 30 samples.

Results

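SCD (stearoyl-CoA desaturase, ENSBTAG00000045728) was examined in visceral adipose tissue of 30 heifer calves. It is 1 of the 24596 genes listed for these libraries and its row was found by its identifier. RNA-seq was carried out on polyA RNA with 1 library per calf, 15 from calves on a high plane of nutrition (HI) and 15 from calves on a moderate plane (MOD). All calves were Angus × Holstein-Friesian heifers, fed differentially from 2 weeks of age, with the tissue taken from the omental fat at 21 weeks. HI calves had a target growth of 1.2 kg/d and MOD calves of 0.5 kg/d. For 8 weeks HI calves were offered up to 1.5 kg of milk replacer in 10 litres each day, with concentrates to appetite. MOD calves were offered up to 0.5 kg in 4 litres, with concentrates stepped up to at most 1 kg. Milk was reduced gradually before weaning in both groups. For the next 11 weeks HI calves had concentrates to appetite and MOD calves 1 kg a day, both groups with hay. Calves had been assigned to the diets inside blocks formed on sire, age and bodyweight, and the tests ignore these blocks because the labels do not name them.

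SCD sits in the membrane of the endoplasmic reticulum and places the first double bond into saturated fatty acids bound to coenzyme A, turning stearic acid into oleic acid and palmitic acid into palmitoleic acid. The reaction uses oxygen and electrons passed on by cytochrome b5. In cattle the enzyme supplies much of the oleic acid of body fat, its substrates come from fatty acid synthesis and from the diet after hydrogenation in the rumen, and its transcription is known to be driven by insulin and by sterol regulatory element-binding protein. The level of its mRNA in a fat depot is therefore commonly read as a sign of how active lipid synthesis is there. The data used here pair no other identifier with a gene name, so the synthetic partners and regulators of SCD, and the markers of adipocytes and of other cells in the depot, were not analysed here. The identity of the SCD row was taken from its identifier as named for the series.

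The libraries of HI calves held between 13269303 and 19383275 reads assigned to genes (median 16506045), and those of MOD calves between 11847883 and 19364429 (median 15155385). At least 1 read fell on 19170 genes in these libraries, and none of the 435 pairs of libraries had identical values. In a principal component analysis of the genes other than SCD, the first component held 36.7% of the variance and set 3 libraries apart, with scores of 167.3 for HI calf 2120, 88.5 for MOD calf 975 and 49.3 for MOD calf 911. The other 27 calves scored between -25.5 and 9.56. These 3 calves were also low in SCD, so results are also given without them where they move.

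Levels are given as TMM-normalized CPM, the usual count-per-library scale of RNA-seq, in which each library was scaled by the trimmed mean of M-values so that levels compare between calves. In HI calves SCD ranged from 60.0 to 5057 CPM with a median of 3500 CPM. The lowest HI value belonged to calf 2120, and the next was 757.3 CPM in calf 2570, 12.6-fold higher. The other 14 HI calves lay within a 6.68-fold range, with a mean of 2906 ± 1482 CPM (SD, n = 14), beside 2716 ± 1606 CPM (SD, n = 15) for all HI calves. HI calves were thus high in SCD apart from 1 calf.

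In MOD calves SCD ranged from 6.18 to 3189 CPM with a median of 122.3 CPM, and the mean was 792.2 ± 970.0 CPM (SD, n = 15). The values fell on both sides of a gap. Below, a cluster means the calves on 1 side of such a gap, and clustering itself was not tested. The 8 lowest MOD calves ended at 122.3 CPM, and the 7 highest began at 865.4 CPM, with no calf in the 7.07-fold gap between them. Calf 975 was the lowest at 6.18 CPM, and calves 1689 and 2537 followed at 38.9 and 40.9 CPM. The 8 lowest calves thus spanned a 19.8-fold range, with calf 975 apart from the rest. At the top were calves 981, 991 and 1057 with 1720, 2069 and 3189 CPM. The MOD median lay at the lower edge of the gap, and it was 493.9 CPM with any 1 of the 7 lowest calves left out and 865.4 CPM without calves 975 and 911. The 7 MOD calves above the gap held 96.0% of the summed SCD value of that diet.

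**Figure D1:**
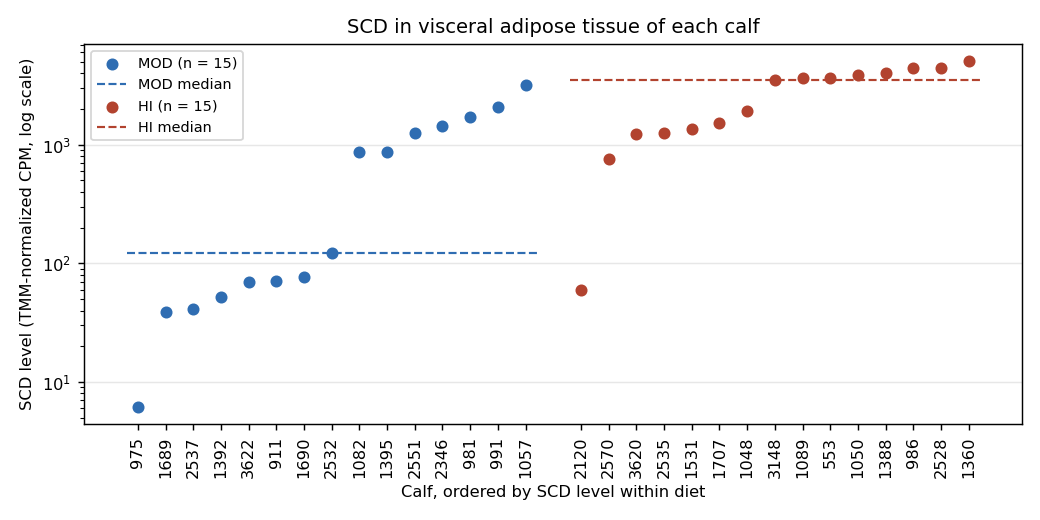
SCD in TMM-normalized CPM (log scale) for each calf, with calves ordered by value within MOD (n = 15) and HI (n = 15). MOD calves leave an empty interval between 122.3 and 865.4 CPM, and HI calf 2120 at 60.0 CPM lies apart from the other HI calves, which start at 757.3 CPM.

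The 2 diets overlapped. SCD was above the highest MOD calf in 8 of the 15 HI calves, while 7 MOD calves reached the second-lowest HI value or more. SCD was below 200 CPM in 9 calves, HI calf 2120 and 8 MOD calves. Their libraries held 11847883 to 19383275 reads, the whole range of depth over the 30 calves. The 6 MOD calves of this kind other than 975 and 911 had first-component scores of -20.5 to -4.07, within the range of the remaining calves. In bulk tissue, fewer cells that express SCD and less SCD mRNA per cell cannot be told apart.

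The question put to the 2 diets was whether SCD differed with plane of nutrition. SCD was up-regulated in HI calves, by 3.03 ± 0.777 on the scale of log2(value + 0.5) (SE, 15 calves per diet, limma, adjusted p = 0.00882). The 95% interval was 1.45 to 4.61 on the log2 scale, or a fold change of 8.16 with limits of 2.73 and 24.5. By the same test 856 of 12738 genes were called, 6.72% of those tested, and 556 or 4.36% were higher in HI calves. Only 4 genes had a larger upward log2 fold change than SCD, yet it ranked 678 by p-value. Diet accounted for 32.5% of the variance in SCD between calves, compared with 5.04% for the median gene, and SCD ranked 894 by this share. These shares were 39.9% and 8.11%, with a rank of 871, without calves 2120, 975 and 911.

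The size of the difference depended on how the calves were averaged. The ratio of arithmetic means was 3.43, the fold change from means of log2 values was 8.16, and the ratio of medians was 28.6. Without calves 2120, 975 and 911 the ratio of means was 3.20 and the ratio of medians 4.11, because the MOD median crossed the gap. Count-based tools, which compare arithmetic means, gave a log2 fold change of 1.78, with an adjusted p of 0.0195 by the exact test of edgeR and 0.0277 by DESeq2. The quasi-likelihood test of edgeR gave an adjusted p of 0.0683, and SCD was not called by it. Without calves 2120, 975 and 911 the limma log2 fold change was 2.86 with an adjusted p of 0.00291. Leaving out each calf in turn gave 2.66 (without MOD calf 975) to 3.39 (without HI calf 2120), and the highest adjusted p was 0.0173.

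**Figure D2:**
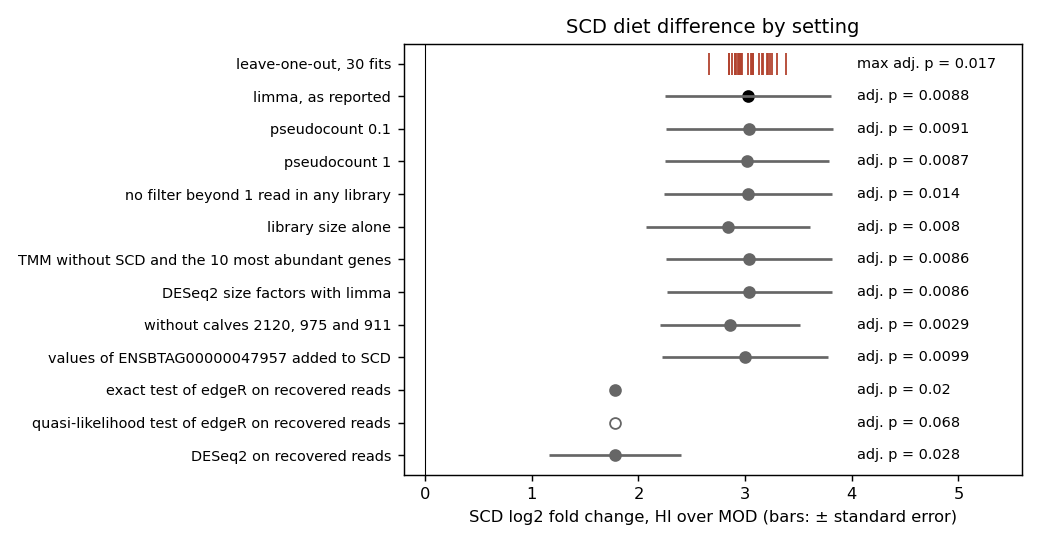
Log2 fold change of SCD, HI over MOD (x axis), under each processing setting, with bars of ± standard error where the tool gives one and ticks for the 30 fits that left out a calf. Fits to log2 values lie between 2.66 and 3.39 and the 3 count-based tools at 1.78, with the open symbol marking the quasi-likelihood test, whose adjusted p was 0.0683.

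As a share of all reads counted on genes, a measure that scaling between libraries leaves unchanged, SCD took 0.00402 to 0.445% of an HI library (median 0.315%) and 0.000629 to 0.328% of a MOD library (median 0.0142%). The MOD median share was 0.0834% without calves 975 and 911, and the HI median 0.329% without calf 2120. The mean share was 0.255 ± 0.144% in HI and 0.0807 ± 0.0979% in MOD calves (SD, n = 15 each). The difference in mean share, higher in HI calves, was 0.174 percentage points (two-sided permutation test, 100000 resamples, p = 0.000940). Without calves 2120, 975 and 911 it was 0.180 percentage points (p = 0.000760). At the extremes, 98 reads were counted on SCD in calf 975, a share with an exact 95% binomial interval of 0.000510 to 0.000766%, and calf 986 had a share of 0.445% with an interval of 0.441 to 0.448%. These intervals cover counting error only and are far narrower than the differences between calves. HI calves carried 779 to 73451 reads on SCD and MOD calves 98 to 46532.

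Ranked by value among all genes listed, which favours long genes because levels were not divided by transcript length, SCD held rank 18 to 3069 in HI calves with a median of 25. In MOD calves it held rank 25 to 9308 with a median of 1231, or 170 without calves 975 and 911. It was among the 100 highest genes in 13 HI calves and in 5 MOD calves. The HI calf at rank 3069 was calf 2120, and the other HI calves were between 18 and 157. MOD calves above the gap ranked 25 to 170, and those below it 1231 to 9308. SCD was thus among the most abundant transcripts of the depot in most HI calves and in some MOD calves, and ranked far lower in the rest.

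**Figure D3:**
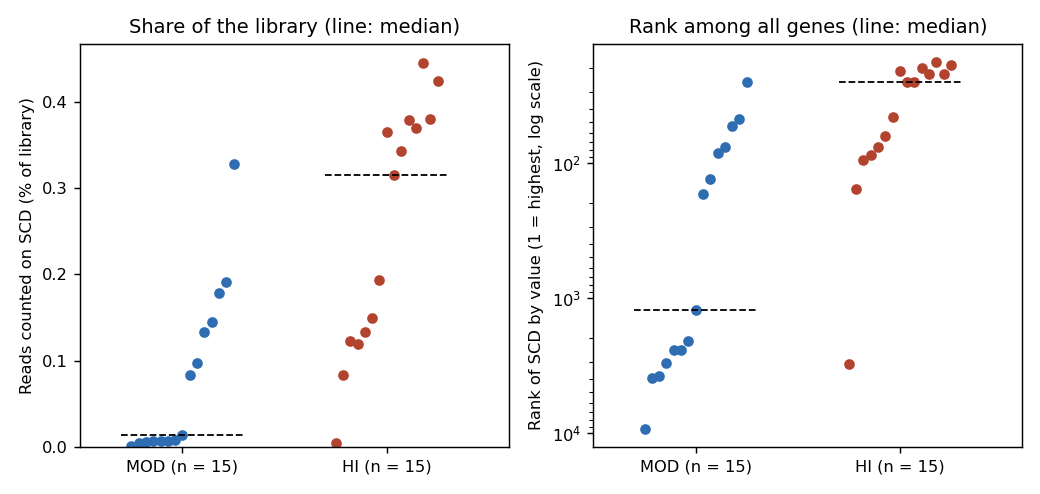
Share of counted reads on SCD in percent (left) and rank of SCD by value among all genes, with 1 the highest, on a log scale (right), for each MOD and HI calf, with the median of each diet as a dashed line. Median shares were 0.0142% in MOD and 0.315% in HI calves, and median ranks 1231 and 25. Without calves 975 and 911 the MOD medians were 0.0834% and 170.

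Calves of 1 diet differed in SCD far more than in most genes. The SD of log2(value + 0.5) was 2.74 across MOD calves and 1.63 across HI calves, beside a median of 0.40 and 0.44 over the 12738 genes tested. In MOD calves SCD ranked 3 by SD, and without calves 975 and 911 its SD was 2.45 and its rank 5, when the median gene had an SD of 0.33. In HI calves it ranked 41, and without calf 2120 its SD was 0.90 and its rank 246, when the median gene had an SD of 0.29. The high spread in HI calves therefore rested in part on 1 calf, while in MOD calves the SD was 1.26 over the 8 calves below the gap and 0.68 over the 7 above it. The SD of 1.26 also rested in part on 1 calf. Calf 975 was at 2.74 on the log2 scale, and the others below the gap were at 5.30 to 6.94. The gap within MOD calves, 2.82 on the log2 scale, ranked 15 among the largest gaps of all genes, whose median was 0.37. Without calves 975 and 911 it was of the same size and ranked 13.

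The mean absolute deviation from the diet median was 1.08 in HI and 2.40 in MOD calves on the log2 scale, a difference of -1.32 (two-sided permutation test, 100000 resamples, p = 0.0242). Without calves 2120, 975 and 911 the deviations were 0.739 and 2.17 (p = 0.00830). The difference passed 0.05 with all calves, but not in every fit that left out a calf. It no longer did when MOD calf 981, 991, 1057 or 2346 was left out, with differences of -1.24 to -1.16 and p-values of 0.0506 to 0.0567. All 4 of these calves lay above the gap. Leaving out any 1 of the 8 MOD calves below the gap gave p-values of 0.00256 to 0.00690 by the same test. The deviations are taken from a MOD median at the lower edge of the gap, so the result depends on which side loses a calf.

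**Figure D4:**
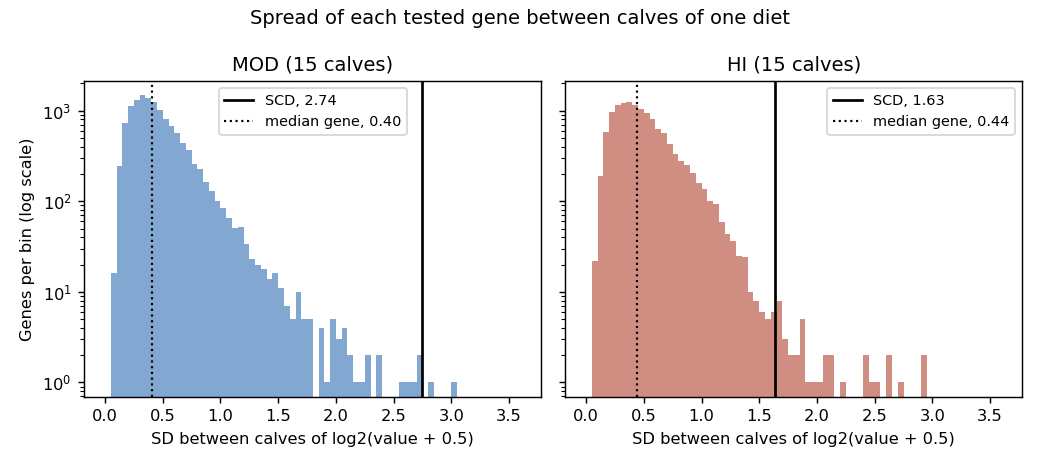
Number of tested genes (log scale) by the SD between calves of log2(value + 0.5), for 15 MOD calves (left) and 15 HI calves (right), with SCD as a solid line and the median gene as a dotted line. SCD lies at 2.74 in MOD calves, where it ranked 3, and at 1.63 in HI calves, where it ranked 41.

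The genes that followed SCD across calves were ranked by the lower of the 2 rank correlations with SCD, over the 15 HI and over the 15 MOD calves. The correlations are descriptions, since the calves of a diet share a table and its scaling and fall into clusters. The genes named below were picked by this ranking in the same calves. Their slopes on SCD and p-values are therefore descriptions too, not separate support. ENSBTAG00000047957 came first, with Spearman's rho of 0.97 in HI and 0.97 in MOD calves. It ranged from 14.4 to 1922 CPM in HI calves (median 1110 CPM) and from 1.51 to 1172 CPM in MOD calves (median 42.8 CPM). The calves stood in nearly the same order as for SCD, and the likeness was also seen inside each cluster. Pearson's r was 0.99 over the 14 HI calves other than 2120, 0.97 over the 8 MOD calves below the gap and 0.98 over the 7 above it. Spearman's rho was 0.96, 0.81 and 1.00. The r of 0.97 leans on calf 975, at 1.51 CPM of this gene where the others below the gap had 15.9 to 42.8 CPM.

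With diet in the fit, the log2 value of ENSBTAG00000047957 rose by 1.01 ± 0.0196 for each unit of log2 SCD (SE, limma, adjusted p = 2.46e-27), which is close to proportional, and by 0.957 without calves 2120, 975 and 911. It was itself up-regulated in HI calves, by 2.89 ± 0.787 on the log2 scale (limma, adjusted p = 0.0134). Its SD across MOD calves, 2.72, stood next to that of SCD at rank 4. For every 100 SCD reads, a calf had 24.01 to 53.94 reads on ENSBTAG00000047957, with a median of 34.56. Calves 2120, 975 and 911 had the lowest ratios, and without them the lowest was 28.26. The log2 ratio of SCD to this gene was 1.61 ± 0.175 in HI and 1.47 ± 0.261 in MOD calves (SD, n = 15 each), a difference of 0.144 (two-sided permutation test, p = 0.0852). Without calves 2120, 975 and 911 the difference was 0.176 (p = 0.0152). Whether this row and SCD share sequence or reads was not tested, so its values as those of a separate gene are uncertain. Adding its values to SCD left the diet difference at 2.999 on the log2 scale (limma, adjusted p = 0.00985).

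The second gene on the positive side, ENSBTAG00000037489, was expressed at a low level, from 2.54 to 13.5 CPM in HI calves (median 8.68 CPM) and from 3.84 to 9.87 CPM in MOD calves (median 6.85 CPM). Its rho with SCD was 0.91 on each diet. It rose by 0.156 ± 0.0222 per unit of log2 SCD (SE, limma, adjusted p = 3.21e-06), a far shallower slope than that of ENSBTAG00000047957. It was not called between diets, with a log2 fold change of 0.28 ± 0.156 (SE, limma, adjusted p = 0.249). Its lowest value was that of HI calf 2120, and without calves 2120, 975 and 911 the slope was 0.102 (limma, adjusted p = 0.000373).

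On the negative side, ENSBTAG00000014995 and ENSBTAG00000015267 came first, with rho of -0.85 and -0.84 in HI and -0.85 and -0.85 in MOD calves. ENSBTAG00000014995 ranged from 6.99 to 19.5 CPM in HI and from 6.35 to 13.5 CPM in MOD calves, and the highest value of each diet belonged to calf 2120 and calf 975. It fell by 0.108 per unit of log2 SCD (SE 0.0200, limma, adjusted p = 8.47e-05). ENSBTAG00000015267 ranged from 23.5 to 45.3 CPM in HI and from 21.7 to 48.6 CPM in MOD calves, and it fell by 0.116 per unit (SE 0.0180, limma, adjusted p = 9.24e-06). The slopes were -0.0797 and -0.140 without calves 2120, 975 and 911 (limma, adjusted p = 0.00866 and 1.15e-05). Neither was called between diets, with adjusted p-values of 0.991 and 0.673 in limma. Inside the clusters the relation of ENSBTAG00000015267 was weaker, with rho of -0.80, -0.43 and -0.39 over the 14, 8 and 7 calves. For ENSBTAG00000014995 these were -0.82, -0.81 and -0.75.

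**Figure D5:**
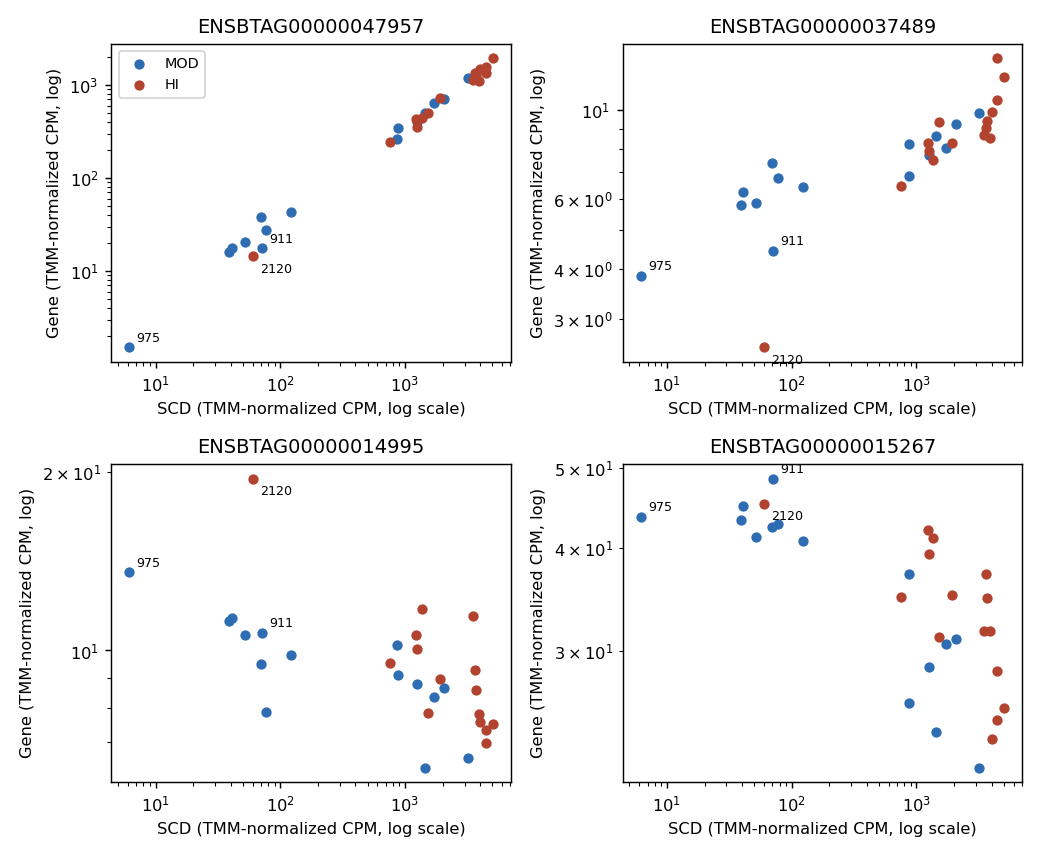
Value of each of the 4 genes most like SCD in pattern against SCD, both in TMM-normalized CPM on log scales, with 1 point per calf, MOD in blue and HI in red, and calves 2120, 975 and 911 named. ENSBTAG00000047957 lies along a single line from calf 975 to the highest HI calf, while the other 3 genes move over a narrow range of values.

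Many genes moved with SCD across calves. With diet in the fit, 3512 of 12737 genes (27.6%) had a positive and 2840 (22.3%) a negative SCD slope at an adjusted p under 0.05 (limma). A rank correlation with SCD of 0.7 or more on both diets was seen in 161 genes, and one of -0.7 or less in 91 genes. The counts depended on the calves in the fit. Over HI calves alone they were 3788 and 2736, and over MOD calves alone 1992 and 1859. Over the 14 HI calves other than 2120, which share 1 cluster, 44 genes had a positive slope and 0 a negative one, with 1252 and 921 at an unadjusted p under 0.05 (limma). With a term for SCD above or below 200 CPM, the counts were 142 and 212. Positive slopes numbered 2356 and negative ones 2087 without calves 2120, 975 and 911. ENSBTAG00000047957, picked for its likeness to SCD in these calves, was called in every one of these fits, with slopes of 0.957 to 1.07. The slopes of the other 3 named genes were not called over the 14 HI calves, with adjusted p-values of 0.101 to 0.270, and those of ENSBTAG00000014995 and ENSBTAG00000015267 were not called with the term for high and low SCD (adjusted p = 0.0566 and 0.142).

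The slope on SCD was also compared between diets. It differed in 4310 genes (33.8%) at an adjusted p under 0.05 by the interaction term of limma. Without HI calf 2120 it differed in 0 genes, so the count rested on that calf. In that fit 753 of 12737 genes had an unadjusted p under 0.05, close to the share that this cutoff passes with no difference. Between ENSBTAG00000047957 and SCD the slope was 0.0792 higher in HI than in MOD calves (limma, adjusted p = 0.143).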

How the data were processed

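Visceral adipose RNA of 15 HI and 15 MOD calves was prepared with a stranded kit. Cutadapt was used by the authors for trimming and STAR for alignment to genome build UMD3.1 and for counting. The strand setting is not given in the sources used here. The signal that the authors deposited, for 24596 genes in 30 columns, is the read count of a gene as CPM of the TMM-scaled library, without a filter or transcript length. Groups came from the diet label.

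Whole reads were recovered by dividing each column by the value that a single read has in it, and 100% of values were whole within 0.01 read. The number of reads limits the precision of low values. Only genes that exceeded a value of 1 in 15 or more calves were tested, and log2(value + 0.5) was fitted with limma 3.58.1 (R 4.3.3), with a variance trend and Benjamini-Hochberg adjustment. Such fold changes understate those of low genes. A gene was called between diets at an adjusted p under 0.05 and a fold change above 1.5. A slope on SCD was called at an adjusted p under 0.05. The exact and quasi-likelihood tests of edgeR 4.0.16 and DESeq2 1.42.0 were run on recovered reads as alternatives. Other alternatives changed the pseudocount, filter, scaling and calves. Single measures were compared by two-sided permutation tests of 100000 resamples (SciPy 1.17.1). The limma fits for diet and for the SCD slope with diet were tested on simulated data. The interaction fit and the permutation tests were not. With 1 library per calf, p-values take the variation between these calves as the error.

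SCD, the gene lists and the tests were chosen with earlier results of these data known. Besides SCD, the 2 genes with the highest positive and the 2 with the strongest negative likeness are printed by identifier. Likeness is the lower of the absolute Spearman's rho over HI and over MOD calves, with the same sign. The RefSeq gene table of ARS-UCD2.0, another build, lists 37063 genes and matched 0 identifiers, so gene lists, cell type markers, ratios to named partners, the share without mitochondrial genes and ranks per length were not analysed here. No coordinates or sequences were used.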

Additional observations from a re-analysis of the deposited data

Results flagged for a closer look

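The slope of genes on SCD differed between diets in 4310 of 12737 genes by a test of the difference itself (limma interaction, adjusted p under 0.05). Without HI calf 2120 it differed in 0 genes. In that fit 753 had an unadjusted p under 0.05, close to the share that this cutoff passes with no difference. Of the named genes, ENSBTAG00000037489 had a slope 0.176 higher in HI than in MOD calves (SE 0.0395, limma, adjusted p = 0.00298), and without calf 2120 the difference was 0.118 (adjusted p = 0.832). The slope of ENSBTAG00000014995 differed by -0.111 (SE 0.0409, limma, adjusted p = 0.0377), and without calf 2120 by -0.0726 (adjusted p = 0.858). This calf also had the highest score on the first component of the other genes, 167.3, and the part of that component in these differences was not tested.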

How the results depend on the processing

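The diet difference in SCD kept its direction in 41 alternatives and its call in 40. The exception was the quasi-likelihood test of edgeR, at 1.78 on the log2 scale with an adjusted p of 0.0683 (range of adjusted p over the 11 alternatives other than leaving out a calf, 0.00291 to 0.0683). Leaving out each calf gave 2.66 to 3.39, and for the share 0.161 to 0.192 percentage points, with no call lost. For the spread it gave -1.66 (without HI calf 2120) to -1.16, and the call was lost in 4 of these fits. Genes following SCD numbered 2666 to 3632 positive and 2153 to 2924 negative when a calf was left out. The alternatives that moved these counts by over 1.5 times were HI calves without 2120 alone (44 and 0), MOD calves alone (1992 and 1859) and the term for 2 levels of SCD (142 and 212), all chosen after seeing the data. The slope difference between diets was seen in 0 genes without calves 2120, 975 and 911 and in 0 to 5914 with 1 calf left out, the lowest without HI calf 2120 and the highest without MOD calf 975. The ratio of SCD to ENSBTAG00000047957, also chosen after seeing the data, differed by 0.176 without the 3 calves (p = 0.0152). With library size alone, 351 genes were higher and 779 lower in HI calves, the median over genes of the log2 fold change was -0.19 in place of -0.018, and that of SCD was 2.84. Ratios to named partners, the share without mitochondrial genes and ranks per length were not run, since genes carry no names or lengths here. No paired analysis was possible because the labels give neither the block of a calf nor replicate numbers shared by calves on the 2 diets. Read depth limited the SCD values little, since the calf with the fewest SCD reads, MOD calf 975, held 98. It limited ENSBTAG00000047957 more, with 24 reads in that calf.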
